A study of Homo sapiens with 24 samples.

Results

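The 38 genes described here encode the enzymes and transporters of glycolysis and a set of genes known as targets or regulators of the hypoxia response. They were taken by gene symbol from a count table of 58721 genes, in which each of the 38 was found once, and they comprised 22 genes of transport, glycolysis and flux control and 16 of oxygen sensing and hypoxia response. Expression was measured by 3′ RNA-seq, which reads the ends of polyadenylated transcripts, in 2 human bladder cancer cell lines, RT112, a line of luminal papillary type, and SCaBER, of basal squamous type. Each line received 6 siRNA treatments by lipid transfection: a control siRNA (siControl, number 2 of the labels), siZBED2-1 or siZBED2-2, which target ZBED2, an siRNA that targets FOXA1 (siFOXA1, number 1), or siFOXA1 combined with siZBED2-1 or with siZBED2-2 (the double knock-downs). With 2 libraries a treatment this made 24. The labels number the replicates by experiment batch and do not say whether they were separate cultures, so p-values measure the spread between these libraries. RT112 was grown in RPMI and SCaBER in DMEM, each with serum, so that line and medium cannot be told apart. All libraries, siControl included, came from transfected cells after a short-term knock-down. A single FOXA1 siRNA was used, so the loss of FOXA1 and other effects of that siRNA cannot be told apart, and in bulk RNA fewer expressing cells and less RNA per cell cannot be told apart either.

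Glycolysis breaks glucose down to pyruvate. Glucose enters through transporters such as SLC2A1 (GLUT1), hexokinases trap it as a phosphate, phosphofructokinase commits it to breakdown, and lactate dehydrogenase turns the pyruvate into lactate, which leaves through SLC16A3 (MCT4). When oxygen is scarce, the prolyl hydroxylases EGLN1 and EGLN3 no longer mark the factor HIF1A for destruction, and HIF raises many of these genes together with others for blood vessel growth, pH control and removal of mitochondria. Tumour cells often run glycolysis in the presence of oxygen as well. HIF1A is controlled mainly at the protein level, which was not measured here.

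HIF binds DNA at a short core, ACGTG or GCGTG, in hypoxia response elements. Both cores were looked for on either strand in the 250 bases before each start site that RefSeq lists on GRCh38.p14, the build named by the deposited settings being hg38. Of the 38 genes, 35 matched this table by symbol (not VEGFA, NDRG1 and BNIP3L). The core ACGTG occurred at 22 of the 35 genes and GCGTG at 19, against 21.7% and 36.2% of all 27305 genes of the table, and 6 of the 35 had neither. Over single starts the shares were 38.5% and 35.4% of 65 for these genes, and 18.5% and 32.2% of 35116 for all. The forkhead letters TGTTTAC or TATTTAC, of the kind bound by FOXA1, occurred at 2 of the 35 genes (MXI1 and PFKP) and at 6.43% of all genes. A match is a description of these windows and not a bound site. The stretches below belong to genes on which the results turn: LDHA, GPI and PFKFB3, lower with the FOXA1 siRNA in both lines, HK2 and P4HA2, higher in both as the mean over 3 backgrounds described later, and DDIT4, whose response differed between the lines. Where RefSeq lists several starts, the start with most matches is shown. Capitals mark ACGTG and GCGTG on either strand (CACGT and CACGC are the same cores on the other strand).
LDHA, chr11:18394313-18394562, plus strand: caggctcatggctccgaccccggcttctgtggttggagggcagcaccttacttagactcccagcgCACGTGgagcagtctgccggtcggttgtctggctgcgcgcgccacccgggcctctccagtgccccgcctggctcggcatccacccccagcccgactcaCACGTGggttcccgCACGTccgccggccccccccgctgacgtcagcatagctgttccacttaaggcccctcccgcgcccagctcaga
GPI, chr19:34364742-34364991, plus strand: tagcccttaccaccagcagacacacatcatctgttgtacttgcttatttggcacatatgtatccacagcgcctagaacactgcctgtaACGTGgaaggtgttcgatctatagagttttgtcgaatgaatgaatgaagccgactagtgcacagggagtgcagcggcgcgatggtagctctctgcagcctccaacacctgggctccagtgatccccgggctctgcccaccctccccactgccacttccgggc
PFKFB3, chr10:6202682-6202931, plus strand: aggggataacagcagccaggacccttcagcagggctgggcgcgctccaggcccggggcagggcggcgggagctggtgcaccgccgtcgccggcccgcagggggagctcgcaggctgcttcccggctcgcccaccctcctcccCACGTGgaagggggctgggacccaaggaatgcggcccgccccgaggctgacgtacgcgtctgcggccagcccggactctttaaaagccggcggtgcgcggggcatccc
HK2, chr2:74834920-74835169, plus strand: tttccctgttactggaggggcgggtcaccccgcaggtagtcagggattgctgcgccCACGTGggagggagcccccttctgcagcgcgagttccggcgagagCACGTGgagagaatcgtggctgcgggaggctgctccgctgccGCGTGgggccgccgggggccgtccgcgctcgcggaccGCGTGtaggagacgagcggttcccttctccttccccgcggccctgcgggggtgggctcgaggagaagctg
P4HA2, chr5:132227092-132227341, minus strand: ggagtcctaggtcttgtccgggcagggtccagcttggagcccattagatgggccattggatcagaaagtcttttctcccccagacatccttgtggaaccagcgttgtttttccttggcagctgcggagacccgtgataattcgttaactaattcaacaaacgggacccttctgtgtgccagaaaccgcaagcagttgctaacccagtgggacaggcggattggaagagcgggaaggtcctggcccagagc
DDIT4, chr10:72273674-72273923, plus strand: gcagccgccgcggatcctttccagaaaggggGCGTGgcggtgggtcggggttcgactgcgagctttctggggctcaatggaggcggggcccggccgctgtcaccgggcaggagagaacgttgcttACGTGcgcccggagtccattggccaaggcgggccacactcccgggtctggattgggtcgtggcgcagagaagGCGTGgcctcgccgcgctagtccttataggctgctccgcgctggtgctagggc
The LDHA stretch held the core 5 times and that of HK2 6 times, a palindrome CACGTG counting for both strands. The stretches of PFKFB3, DDIT4 and GPI held it 2, 3 and 1 times, and that of P4HA2 held none. LDHB and HIF1A, also lower in both lines, are not printed: the LDHB stretch held 0 cores and that of HIF1A held 1. Among these windows, genes that fell and genes that rose with the FOXA1 siRNA both included some with the core and some without it. Only HK2 and P4HA2 stood for genes that rose, and whether the core went with the direction was not tested.

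Total counts per library lay between 4425404 and 5207195 in RT112 and between 4519668 and 6119210 in SCaBER, so that the upper limit which a count of 0 allows was 0.49 to 0.678 CPM (counts scaled to TMM-adjusted library sizes). Limits of this kind cover counting error only. FOXA1 stood at 42.2 and 41.3 CPM in the RT112 siControl libraries and at 6.84 and 9.46 under siFOXA1. In SCaBER it was low from the start, at 3.78 and 5.59 CPM under siControl and 0.816 and 1.36 under siFOXA1, a difference that edgeR did not call (adjusted p = 0.272) although the mean over 3 backgrounds was called (log2 fold change -2.85, adjusted p = 0.0087). ZBED2 fell under siZBED2-1 in both lines and was not called under siZBED2-2 (adjusted p = 0.903 in RT112 and 0.844 in SCaBER), and in RT112 it also fell under siFOXA1 (log2 fold change -2.48, adjusted p = 0.0325). Of the Luminal markers, 7 of 10 could be tested between the lines under siControl and all 7 were lower in SCaBER. Of 10 Basal markers, 8 were higher in SCaBER and 1 was lower. The shares of all genes were 17.2% higher and 16.4% lower. Of 10 non-epithelial markers 9 stayed under 6 CPM in every library, with LST1 at 0 throughout, CD3E at 0 in 23 of 24 libraries and PTPRC in 21. COL1A1 ranged from 4.4 to 58.1 CPM in RT112, where it rose under siFOXA1 (log2 fold change 3.11, adjusted p = 5.86e-07), and from 2.88 to 14.1 in SCaBER. PECAM1, the other marker tested in RT112, was called lower under siFOXA1 (adjusted p = 0.0112), with both libraries at 0. The summed level of the 10 was 38.6 to 59.4 CPM with the FOXA1 siRNA against 8.99 to 29.5 without it in RT112, and 11.3 to 14.9 against 4.96 to 9.73 in SCaBER, and its part in the results was not tested. Of 10 cell cycle markers, 9 fell in RT112 and 10 in SCaBER under siFOXA1. Their summed level was 531 to 1500 CPM in the 6 RT112 libraries with the FOXA1 siRNA against 1680 to 3070 in the 6 without it, and 1030 to 2060 against 1830 to 2880 in SCaBER. The share of mitochondrial transcripts was 18.6% to 22.7% with the FOXA1 siRNA against 8.22% to 17.8% without it in RT112, and 9.29% to 12.9% against 9.55% to 12% in SCaBER. The part of the cell cycle shift was not tested. With the mitochondrial transcripts left out of the library sizes, siFOXA1 called 17 genes of the list in RT112 and 14 in SCaBER, against the 16 and 14 otherwise. The 38 genes together took 0.763% to 1.37% of the counts of an RT112 library and 0.842% to 1.18% of a SCaBER library.

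**Figure D1:**
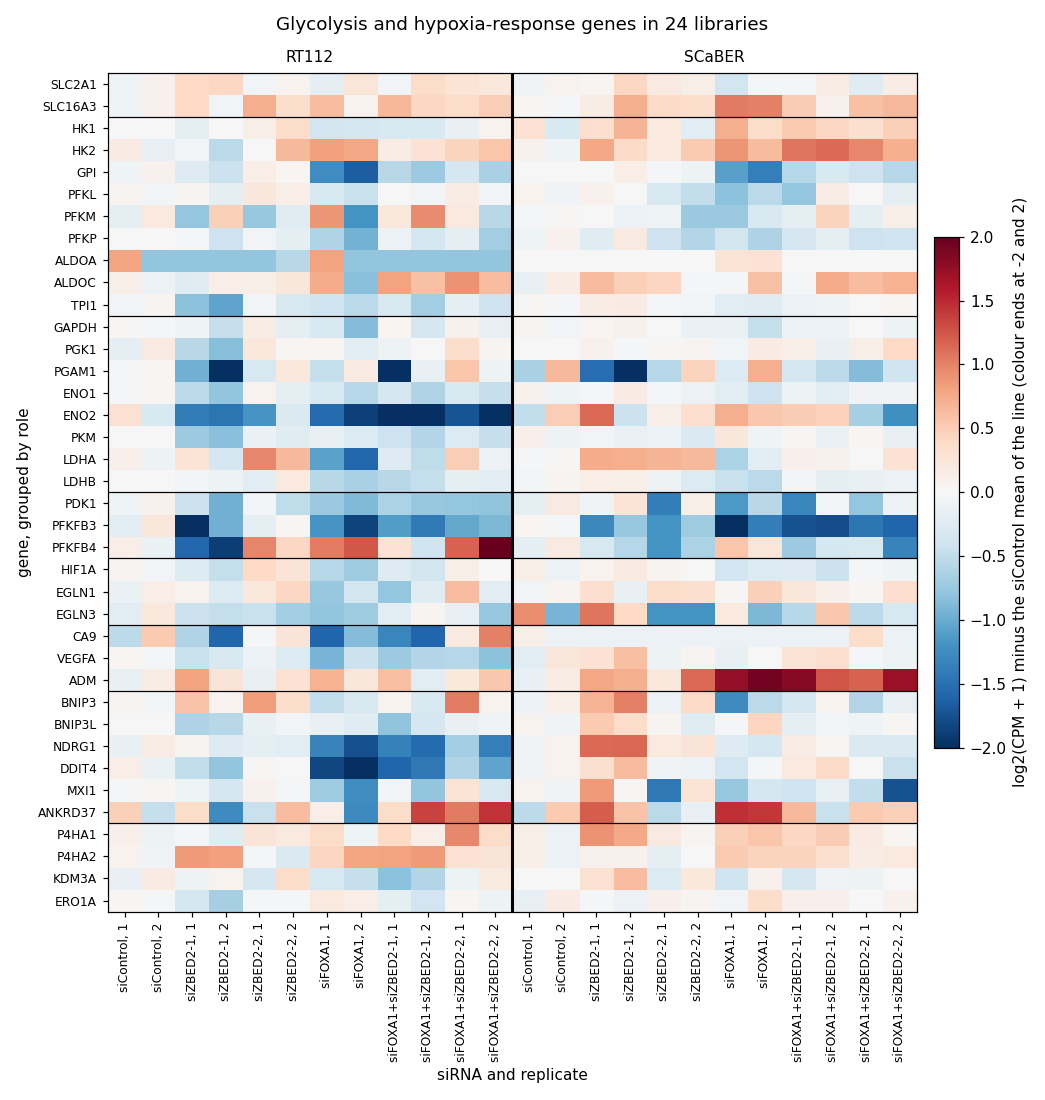
Heat map of all 38 genes (rows, grouped by role) in the 24 libraries (columns), coloured by log2(CPM + 1) minus the siControl mean of the same line. GPI and PFKFB3 are blue in the 6 libraries with the FOXA1 siRNA in either line. PFKFB3 is also blue with siZBED2-1 in RT112 and with either ZBED2 siRNA in SCaBER. NDRG1 and DDIT4 are bluer in RT112 than in SCaBER, and ADM is red with the FOXA1 siRNA in SCaBER. Rows such as ALDOA, CA9 and EGLN3 rest on few counts.

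ALDOA, the aldolase of most tissues, could not be assessed: it had 22 counts in all, 19 of 24 libraries were at 0, and it was not tested. CA9, a carbonic anhydrase of the cell surface, had 92 counts over the RT112 libraries and 3 over those of SCaBER, where it was not tested. EGLN3 was low in SCaBER, at 3.8 CPM at most, and at 0 in both siZBED2-2 libraries. This left 37 genes tested in RT112 and 36 in SCaBER. PGAM1 is also uncertain, since rows annotated as its pseudogenes held 20% of the counts of gene and pseudogenes together, and so to a lesser degree is BNIP3 (2.93%).

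The FOXA1 siRNA alone called genes of the list in both directions, mostly lower in RT112. In that line, 14 of 37 fell and 2 rose at an adjusted p under 0.05 (a called gene), where of all 13264 genes tested 11.9% fell, 11.3% rose and 23.3% were called in either direction. In SCaBER, 9 of 36 fell and 5 rose, where 9.12% of 13129 genes fell, 8.71% rose and 17.8% were called. Over the genes of the list tested, the log2 fold change had a median of -0.43 in RT112 and -0.17 in SCaBER, against -0.01 and -0.02 for all genes tested. On TPM values tested with limma, where the median of all RT112 genes was itself -0.26, 14 genes of the list fell in RT112 and 0 rose, and 9 fell and 2 rose in SCaBER. In 1 fit of all 24 libraries 13 fell and 2 rose in RT112, while in SCaBER the balance turned, with 4 lower and 6 higher. PFKP, GAPDH, ENO1, LDHA, HIF1A and BNIP3 lost their SCaBER calls in that fit, and PDK1 and MXI1 their RT112 calls. Called in one direction in both lines were 9 genes: GPI, PFKP, GAPDH, ENO1, LDHA, LDHB, PFKFB3 and HIF1A were lower and P4HA2 was higher. These 9 were 56.2% of the genes of the list called in RT112 and 64.3% of those called in SCaBER. The corresponding shares over all genes were 41.4% and 54.1%. No gene of the list was called in opposite directions by siFOXA1 alone. Calls depended on single libraries of siFOXA1 and siControl. In RT112, 8 rather than 16 genes were called without siFOXA1 replicate 2 and 10 without siControl replicate 2, and in SCaBER 7 rather than 14 without either siControl replicate 2 or siFOXA1 replicate 2 and 9 without siFOXA1 replicate 1.

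Among the transporters, SLC2A1 moved little, from 127 and 144 CPM under siControl to 118 and 161 under siFOXA1 in RT112, and was called in neither line (adjusted p = 0.887 and 0.483). SLC16A3, the lactate exporter, stood at 46.6 and 45.5 CPM in the SCaBER siControl libraries and at 95.4 and 93.9 under siFOXA1. Its log2 fold change was 1.04 ± 0.20 (SE, n = 2 per group, edgeR adjusted p = 0.000215). In RT112 it read 92.1 and 105 CPM against 151 and 103, where the libraries overlapped, and it was not called (adjusted p = 0.19).

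In upper glycolysis, from hexokinase to triose phosphate isomerase, GPI had the steepest fall in both lines. GPI interconverts glucose and fructose 6-phosphates and lies on chromosome 19 (34359718 to 34402413). It read 367 and 417 CPM under siControl and 164 and 124 under siFOXA1 in RT112, the log2 fold change being -1.44 ± 0.15 (SE, adjusted p = 2.32e-07). The SCaBER libraries read 308 and 304 against 144 and 118 CPM, the log2 fold change being -1.22 ± 0.14 (SE, adjusted p = 2.9e-08). In both lines the libraries were separate by a wide margin, and the call held under every alternative tried, including each library left out. PFKP, the platelet-type phosphofructokinase, fell from 142 and 139 to 91.9 and 72.2 CPM in RT112 (log2 fold change -0.78 ± 0.19, SE, adjusted p = 0.00381) and from 145 and 163 to 119 and 100 in SCaBER (-0.49, adjusted p = 0.0297). Without siFOXA1 replicate 2 neither call held, nor did that of SCaBER without siControl replicate 2. TPI1 fell in RT112 only at this threshold, from 789 and 857 to 624 and 565 CPM (log2 fold change -0.47, adjusted p = 0.0169), a call lost without siFOXA1 or siControl replicate 2. The liver-type PFKL, the muscle-type PFKM and ALDOC were not called in either line.

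Of the hexokinases, which phosphorylate glucose, HK2 rose in RT112 and HK1 in SCaBER. HK2, the inducible isoform, rose from 41.8 and 33.4 to 66.6 and 64.9 CPM in RT112 (log2 fold change 0.81 ± 0.25, SE, adjusted p = 0.0205). It read 14.4 and 12.8 against 25.9 and 21.5 CPM in SCaBER, with a log2 fold change of the same size that was not called (0.81, adjusted p = 0.0607). HK1, the isoform of most tissues, rose in SCaBER from 108 and 70.1 to 145 and 112 CPM (0.53, adjusted p = 0.0476), and read 152 and 151 against 117 and 119 CPM in RT112 (-0.36, adjusted p = 0.0967). The HK2 call in RT112 was lost without siControl replicate 2 or either siFOXA1 library, and the HK1 call in SCaBER without siControl replicate 2 or siFOXA1 replicate 1. Limma on TPM values lost both calls, and library size alone and DESeq2 each lost that of HK1.

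Lower glycolysis, from GAPDH to lactate dehydrogenase, gave 5 genes that fell in RT112 and 4 in SCaBER, of 8 tested, and none that rose. Of all genes 11.9% fell in RT112 and 9.12% in SCaBER. LDHA makes the subunit that favours lactate formation and lies on chromosome 11 (18394563 to 18408425), next to the stretch printed above. In RT112 it fell from 530 and 460 to 234 and 165 CPM, the log2 fold change being -1.31 ± 0.20 (SE, adjusted p = 2.26e-05). In SCaBER it fell from 363 and 372 to 237 and 317 CPM (log2 fold change -0.41, adjusted p = 0.0212), and this call was lost without either siControl library or siFOXA1 replicate 1. LDHB, the subunit that favours pyruvate, fell from 213 and 215 to 146 and 136 CPM in RT112 (-0.60 ± 0.15, SE, adjusted p = 0.00448) and from 250 and 272 to 191 and 179 in SCaBER (-0.50 ± 0.13, SE, adjusted p = 0.00509). Both groups were apart in each line for LDHA and LDHB. GAPDH fell from 4040 and 3870 to 3200 and 2160 CPM in RT112 (-0.56, adjusted p = 0.0121) and from 2590 and 2420 to 2280 and 1790 in SCaBER (-0.30, adjusted p = 0.0265). ENO1, the common enolase, fell from 2660 and 2780 to 2200 and 1840 CPM in RT112 (-0.43, adjusted p = 0.0173) and from 3130 and 2750 to 2530 and 2200 in SCaBER (-0.31, adjusted p = 0.017). ENO2, the neuronal enolase, fell in RT112 from 22.9 and 14.5 to 5.63 and 4.3 CPM (-1.90 ± 0.56, SE, adjusted p = 0.0138) and was at 5.3 CPM or less in these groups of SCaBER. The calls of LDHB, GAPDH, ENO1 and ENO2 in RT112 and of LDHB, GAPDH and ENO1 in SCaBER were each lost without siFOXA1 replicate 2 of the line. PGK1 and PKM, both of which make ATP, were called in neither line, with log2 fold changes of -0.09 and -0.20 in RT112 and 0.06 and 0.07 in SCaBER. PGAM1 was not called in either.

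Of the 3 switches that set the flux, 2 fell in RT112 and 1 in SCaBER, where 11.9% and 9.12% of all genes fell. PFKFB3 makes the activator of phosphofructokinase and fell from 38.9 and 53.8 to 19.7 and 12 CPM in RT112 (log2 fold change -1.54 ± 0.34, SE, adjusted p = 0.00162). In SCaBER it fell from 52.7 and 50.3 to 12.2 and 19.1 CPM (-1.72 ± 0.30, SE, adjusted p = 5.13e-05). Both calls held under every alternative tried. PDK1, which turns off pyruvate dehydrogenase, fell in RT112 from 40.7 and 45.9 to 25.3 and 23 CPM (-0.84, adjusted p = 0.0322), although this call was lost with any of the 4 libraries left out. PFKFB4 read 4.83 and 3.85 against 9.86 and 11.6 CPM in RT112 and was not called (1.30, adjusted p = 0.119).

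**Figure D2:**
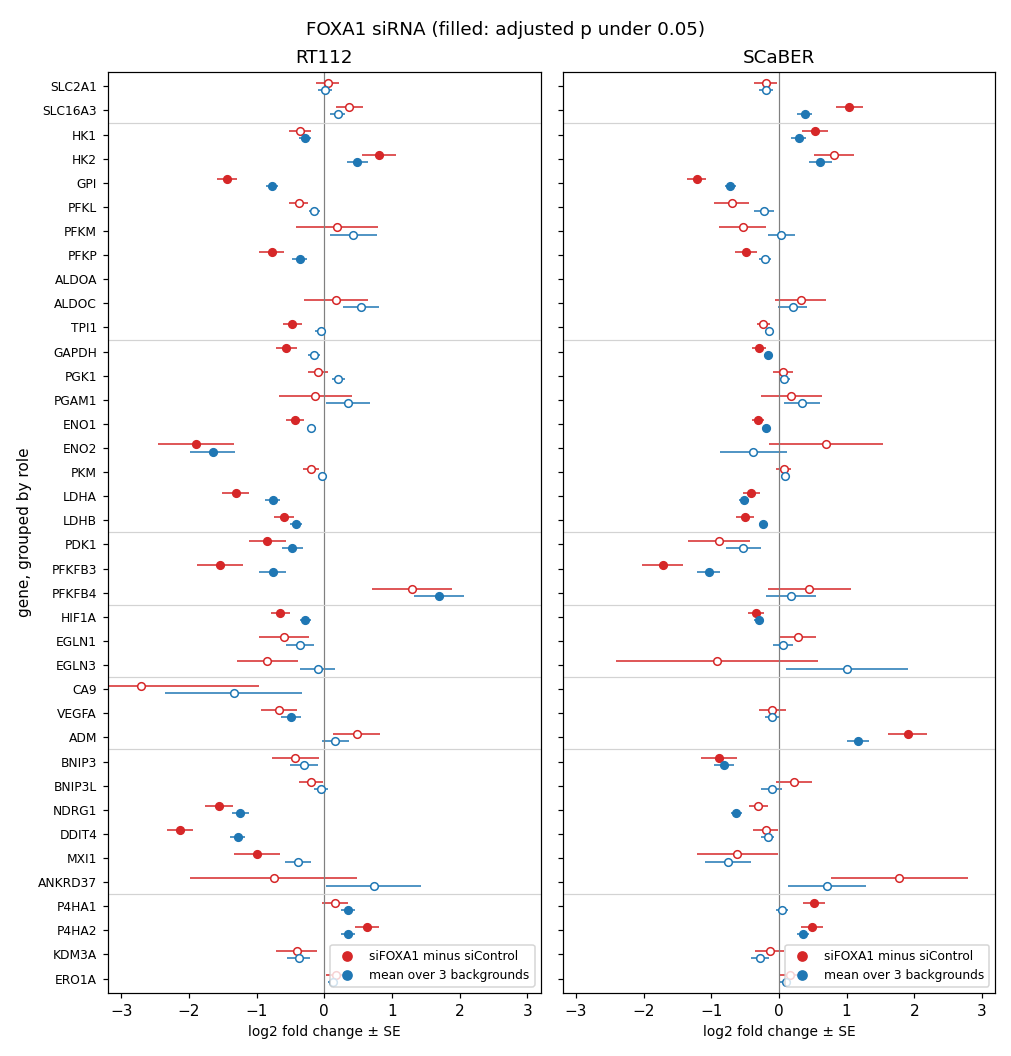
Log2 fold change ± SE of each gene with the FOXA1 siRNA in RT112 (left) and SCaBER (right), for siFOXA1 against siControl (red) and as the mean over 3 backgrounds (blue); filled points were called at an adjusted p under 0.05. GPI, LDHA and PFKFB3 are filled and left of 0 in both lines, DDIT4 is at -2.13 in RT112 and -0.20 in SCaBER, and ADM is at 1.90 in SCaBER.

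Of the oxygen sensing genes, HIF1A itself fell in both lines, from 326 and 299 to 209 and 190 CPM in RT112 (log2 fold change -0.65 ± 0.14, SE, adjusted p = 0.00101) and from 503 and 431 to 357 and 383 in SCaBER (-0.34, adjusted p = 0.0414). The groups did not overlap. The RT112 call held under every alternative, and that of SCaBER was lost without either siFOXA1 library, siControl replicate 1, siZBED2-1 replicate 2 or replicate 1 of siFOXA1 with siZBED2-1. The SCaBER call was also lost with no filter on low counts and in 1 fit of all 24 libraries. EGLN1 and EGLN3 were called in neither line.

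Of the hypoxia targets, 1 of 13 rose and 3 fell in RT112, and 3 of 12 rose and 1 fell in SCaBER. The shares of all genes that rose and fell were 11.3% and 11.9% in RT112 and 8.71% and 9.12% in SCaBER. ADM, a peptide that widens blood vessels, rose in SCaBER from 13 and 16.2 to 51.2 and 58.1 CPM (log2 fold change 1.90 ± 0.29, SE, adjusted p = 9.92e-06). In RT112 it read 16 and 19.8 against 29.4 and 20.9 CPM, which was not called (0.48, adjusted p = 0.354). DDIT4 (REDD1) restrains mTOR under stress and lies on chromosome 10 (72273924 to 72276036). In RT112 it fell from 413 and 342 to 106 and 66.2 CPM, the log2 fold change being -2.13 ± 0.19 (SE, adjusted p = 1.14e-08). In SCaBER it read 80.6 and 89.6 against 64.9 and 83.9 CPM and was not called (-0.20, adjusted p = 0.533). NDRG1, a gene of stress and growth restraint, fell in RT112 from 142 and 173 to 61.4 and 45.6 CPM (-1.56 ± 0.21, SE, adjusted p = 5.59e-06) and read 118 and 131 against 104 and 97.3 in SCaBER (-0.31, adjusted p = 0.146). MXI1, an antagonist of MYC, fell in RT112 from 26.1 and 27.2 to 15.9 and 10.7 CPM (adjusted p = 0.036), a call lost without siFOXA1 replicate 2 or either siControl library. BNIP3, a receptor for the removal of mitochondria, fell in SCaBER from 35.1 and 41.1 to 15.3 and 25.9 CPM (-0.89, adjusted p = 0.0182), a call lost without siControl replicate 2 or siFOXA1 replicate 1. VEGFA, BNIP3L and ANKRD37 were not called in either line.

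Of the collagen prolyl hydroxylases, P4HA2 rose in both lines and P4HA1 in SCaBER. P4HA2 went from 74.1 and 67.3 to 95.8 and 123 CPM in RT112 (0.63 ± 0.18, SE, adjusted p = 0.0105) and from 104 and 87.8 to 138 and 131 in SCaBER (0.49, adjusted p = 0.0258). P4HA1 went from 88.8 and 74.7 to 114 and 120 CPM in SCaBER (0.52, adjusted p = 0.019) and was not called in RT112 (0.16, adjusted p = 0.605). These calls were lost without siFOXA1 replicate 2 or siControl replicate 2 of the line, and that of P4HA2 in SCaBER also without siFOXA1 replicate 1. The histone demethylase KDM3A and the endoplasmic reticulum oxidase ERO1A were not called.

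The FOXA1 siRNA was given on 3 backgrounds, siControl, siZBED2-1 and siZBED2-2, and the mean of the 3 changes uses all 12 libraries of a line, the above comparison included. In RT112, 12 of 37 genes fell and 4 rose, with 17% of all genes falling, 16.7% rising and 33.8% called. In SCaBER, 9 of 36 fell and 5 rose, with 12%, 12.1% and 24.1% for all genes. In RT112 the share of the list that was called (16 of 37) was thus nearer to that of all genes than with siFOXA1 alone, and the median log2 fold change was -0.15. Across all genes tested the median was -0.01 in each line.

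Called in the same direction in both lines were 8 genes, GPI, LDHA, LDHB, PFKFB3, HIF1A and NDRG1 lower and HK2 and P4HA2 higher, which is 50% of the calls of the list in RT112 and 57.1% in SCaBER (41.3% and 57.7% over all genes). GPI had log2 fold changes of -0.77 ± 0.09 in RT112 and -0.72 ± 0.08 in SCaBER (SE, adjusted p = 1.6e-07 and 1e-08). LDHA had -0.76 ± 0.11 and -0.52 ± 0.07 (SE, adjusted p = 6.89e-06 and 1.36e-06), PFKFB3 -0.76 and -1.04, HIF1A -0.28 and -0.30, LDHB -0.42 and -0.23. In RT112, PFKFB3 read 12 to 24 CPM in the 6 libraries with the FOXA1 siRNA and 10.3 to 53.8 in the 6 without it. The 10.3 was a siZBED2-1 library, and the change on that background alone was not tested. NDRG1, not called by siFOXA1 alone in SCaBER, had -1.24 ± 0.12 and -0.63 ± 0.08 (SE, adjusted p = 1.22e-08 and 3.35e-07). HK2 had 0.49 and 0.61, and P4HA2 0.35 in each line. The LDHB call in SCaBER was lost without replicate 2 of siControl or of siFOXA1 with siZBED2-1, or replicate 1 of siZBED2-2 or of siFOXA1 with siZBED2-2. The calls of GPI, LDHA, PFKFB3, HIF1A and NDRG1 held in both lines under every alternative tried.

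Where all 6 libraries with the FOXA1 siRNA were set against the 6 without it, only a few genes of the list separated completely. NDRG1 ran from 45.6 through a median of 60.6 to 97.8 CPM with it and from 131 through 140 to 173 without it in RT112. ENO2 ran from 1.82 through 3.94 to 5.63 against 5.97 through 11 to 22.9 CPM in the same line. In SCaBER, GPI ran from 118 through 206 to 247 against 284 through 306 to 335 CPM, and PFKFB3 from 12.2 through 15.6 to 19.1 against 20.4 through 30.7 to 52.7. ADM ran from 34.3 through 50.4 to 58.1 with the siRNA against 13 through 20.7 to 33 CPM without it, and P4HA2 from 106 through 126 to 138 against 83.6 through 98.8 to 104. These 6 were all that separated among the tested genes of the list, 5.41% lower and 0% higher in RT112 and 5.56% each way in SCaBER, and among all genes tested the shares were 5.68% lower and 5.13% higher in RT112 and 3.37% and 3.42% in SCaBER. The shares of the list were thus near those of all genes.

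With siFOXA1 alone and not in the mean over 3 backgrounds, TPI1, GAPDH, ENO1 and MXI1 were called in RT112, and PFKP and P4HA1 in SCaBER. In RT112, PFKFB4, VEGFA, P4HA1 and HK1 were called in the mean and not with siFOXA1 alone. There, PFKFB4 rose (log2 fold change 1.70 ± 0.37, SE, adjusted p = 0.000793), a difference that rests in part on the siZBED2-1 background, where it read 0.793 and 0.442 CPM without the FOXA1 siRNA and 5.52 and 3.03 with it. On the siZBED2-2 background it read 9.45 and 6.08 CPM without and 11 and 21.7 with it. VEGFA, the vessel growth factor, fell in RT112 (-0.49, adjusted p = 0.0132), its 6 libraries reading 24.1 to 34.8 CPM with the siRNA and 34.3 to 48.1 without it, so that the ranges met. P4HA1 rose in RT112 (0.35, adjusted p = 0.0158). HK1 was lower in RT112 (-0.29, adjusted p = 0.0144), whereas in SCaBER, where siFOXA1 alone had called it higher, it was higher in the mean as well (0.29, adjusted p = 0.0463). VEGFA lost its call without siFOXA1 replicate 1, P4HA1 without that library or replicate 1 of siFOXA1 with siZBED2-2, and HK1 in RT112 without siZBED2-2 replicate 2 or the same double knock-down library. The HK1 call in SCaBER was lost without replicate 1 of siZBED2-1 or siFOXA1, replicate 2 of siControl, siZBED2-2 or siFOXA1 with siZBED2-2, or either library of siFOXA1 with siZBED2-1. That call was also lost with library size alone, DESeq2, limma on TPM values and 1 fit of all 24 libraries.

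**Figure D3:**
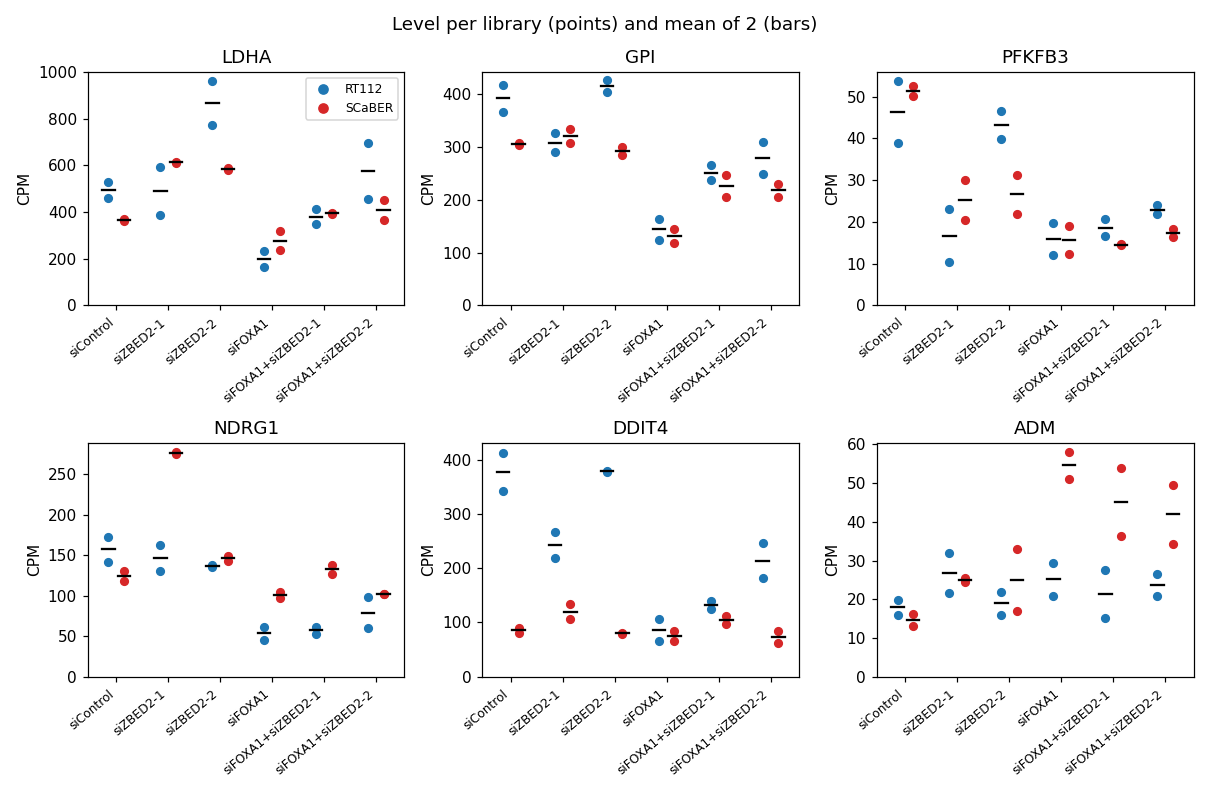
Level in CPM of LDHA, GPI, PFKFB3, NDRG1, DDIT4 and ADM in each library of RT112 (blue) and SCaBER (red), by siRNA; points are libraries and bars the mean of 2. GPI drops to 118 to 164 CPM under siFOXA1 in both lines and lies at 206 to 310 in the double knock-downs, and LDHA is highest in RT112 with siZBED2-2, at 774 and 961 CPM.

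The difference in response between the lines was tested directly in a fit of all 24 libraries. For siFOXA1 alone, 2 of 37 genes differed, where 2.58% of all 14823 genes did: DDIT4, whose log2 fold change was higher in SCaBER by 1.94 ± 0.27 (SE, adjusted p = 3.67e-05), and NDRG1, by 1.25 ± 0.26 (SE, adjusted p = 0.00412). With the replicate number as a block the count was 4, and over all genes 318 differences were called higher in SCaBER and 279 lower. For the mean over 3 backgrounds, 4 genes differed, against 8.11% of all genes. These were DDIT4 (1.10 ± 0.15, SE, adjusted p = 1.24e-05), NDRG1 (0.61 ± 0.15, SE, adjusted p = 0.00692), HK1 (0.58 ± 0.15, SE, adjusted p = 0.0122) and ADM (1.01 ± 0.27, SE, adjusted p = 0.0167). All of these calls held under every alternative tried. ADM and HK1 were thus shown to differ in the mean and not in siFOXA1 alone, where their differences were 1.42 and 0.90 (adjusted p = 0.113 and 0.0578). The remaining genes were not shown to respond differently, although several were called in a single line.

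The ZBED2 siRNAs acted differently from each other. siZBED2-1 in RT112 lowered 9 of 37 genes and raised 1, where 8.8% of all genes were called in either direction. siZBED2-2 gave no called gene of the list (0.166% of all genes), with 3 at an unadjusted p under 0.05 in edgeR. DESeq2 called 0 of the list. With the replicate number as a block 1 was called, and of all genes 29 rose and 15 fell. These comparisons share the siControl libraries with that of siFOXA1. The list's median log2 fold change was -0.29 with siZBED2-1 and 0.01 with siZBED2-2. Without siControl replicate 2 or siZBED2-1 replicate 2 the count for siZBED2-1 was 5, and without siControl replicate 1 it was 6.

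With siZBED2-1, 4 enzymes of glycolysis fell in RT112, among them PGK1 and PKM, which siFOXA1 alone did not call. TPI1 fell from 789 and 857 to 467 and 396 CPM (log2 fold change -0.93 ± 0.14, SE, adjusted p = 8.11e-05). PKM, pyruvate kinase, fell from 1140 in both libraries to 691 and 640 CPM (-0.77 ± 0.12, SE, adjusted p = 9.33e-05). Both calls held with each library left out. PGK1 fell from 274 and 348 to 210 and 170 CPM (-0.71 ± 0.16, SE, adjusted p = 0.00372) and ENO1 from 2660 and 2780 to 1890 and 1580 (-0.65 ± 0.13, SE, adjusted p = 0.00152). PFKFB3 fell from 38.9 and 53.8 to 10.3 and 23 CPM (-1.48 ± 0.34, SE, adjusted p = 0.00597), and PFKFB4 was at 0.793 and 0.442 CPM against 4.83 and 3.85 (-2.75 ± 0.75, SE, adjusted p = 0.0199), a level near the limit of detection. DDIT4 (-0.64, adjusted p = 0.0233), ERO1A (-0.50, adjusted p = 0.0269) and BNIP3L (-0.60, adjusted p = 0.0325) fell as well. P4HA2 rose from 74.1 and 67.3 to 128 and 126 CPM (0.85 ± 0.18, SE, adjusted p = 0.00241). Of these, PGK1, PFKFB3, BNIP3L, P4HA2 and ERO1A were lost without siControl replicate 2, PFKFB4, DDIT4, BNIP3L and ERO1A without siControl replicate 1, PFKFB3, PFKFB4 and BNIP3L without siZBED2-1 replicate 1, and PGK1, PFKFB4, BNIP3L, DDIT4 and ERO1A without siZBED2-1 replicate 2.

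Set directly against siZBED2-2 in RT112, siZBED2-1 gave lower levels of 10 genes and a higher level of P4HA2 (1.00 ± 0.18, SE, adjusted p = 0.000547), where 7.77% of all genes differed. Among the lower genes were PGK1 (-0.83 ± 0.16, SE, adjusted p = 0.00101), TPI1 (-0.75 ± 0.14, SE, adjusted p = 0.00109), HIF1A (-0.71 ± 0.14, SE, adjusted p = 0.00127), PKM (-0.59 ± 0.12, SE, adjusted p = 0.00212) and LDHA (-0.82 ± 0.19, SE, adjusted p = 0.00779). HIF1A read 257 and 224 CPM with siZBED2-1 and 412 and 373 with siZBED2-2, either side of the 326 and 299 of siControl. LDHA read 594 and 389 against 961 and 774 CPM, while siControl read 530 and 460. The LDHA increase with siZBED2-2 over siControl was not called in RT112 (0.81, adjusted p = 0.0985). The count was 7 rather than 11 without siZBED2-1 replicate 2, which lost ENO1, LDHA, DDIT4 and ERO1A, and the LDHA difference was also lost without siZBED2-2 replicate 1. Averaged over both siRNAs, only TPI1 (-0.55, adjusted p = 0.0107) and PKM (-0.48, adjusted p = 0.00881) were called against siControl, with 2.37% of all genes called. With the replicate number as a block 4 genes of the list were called, and of all genes 263 rose and 223 fell. Neither TPI1 nor PKM was called without siControl replicate 2, and PKM not without replicate 1.

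In SCaBER, siZBED2-1 raised 4 of 36 genes and lowered 2, with 4.65% of all genes called. NDRG1 rose from 118 and 131 to 275 and 277 CPM (log2 fold change 1.15 ± 0.14, SE, adjusted p = 1.09e-06), and P4HA1 from 88.8 and 74.7 to 153 and 139 (0.84 ± 0.16, SE, adjusted p = 0.000707). Both held with each library left out. LDHA rose from 363 and 372 to 616 and 612 CPM with siZBED2-1 (0.74 ± 0.13, SE, adjusted p = 0.000214) and to 587 and 578 with siZBED2-2 (0.66 ± 0.13, SE, adjusted p = 0.00383), the only gene of the list called with the latter, where 0.625% of all genes were. BNIP3 rose from 35.1 and 41.1 to 61.4 and 77.4 CPM (0.87, adjusted p = 0.0436). PFKFB3 fell to 20.4 and 30.1 CPM from 52.7 and 50.3 (-1.03, adjusted p = 0.0283), and read 22 and 31.2 with siZBED2-2, where it was not called (-0.95, adjusted p = 0.181). PGAM1 was lower at 4.4 and 2.75 against 8.88 and 23.2 CPM (-2.16, adjusted p = 0.00735), a difference that rests on few counts and on a spread-out control pair. Without siControl replicate 2 the count was 3 rather than 6, with PGAM1, PFKFB3 and BNIP3 lost. BNIP3 was also lost without siControl replicate 1 or either siZBED2-1 library, PFKFB3 without siControl replicate 1 or siZBED2-1 replicate 1, and PGAM1 without siZBED2-1 replicate 2.

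Between the siRNAs in SCaBER 3 genes differed, with 4.01% of all genes: NDRG1 (0.92 ± 0.14, SE, adjusted p = 5.29e-05), P4HA1 (0.72 ± 0.16, SE, adjusted p = 0.00423) and PGAM1 (-2.04, adjusted p = 0.0134). With the replicate number as a block 7 were called, and of all genes 313 were higher with siZBED2-1 and 421 lower. NDRG1 held with each library left out and was the 1 gene called without siZBED2-2 replicate 2, P4HA1 was also lost without siZBED2-1 replicate 1 and PGAM1 without siZBED2-1 replicate 2, while 5 genes were called without siFOXA1 replicate 1 or 2. Averaged over both, LDHA (0.70 ± 0.11, SE, adjusted p = 0.000183) and NDRG1 (0.69 ± 0.12, SE, adjusted p = 0.000984) rose and PFKFB3 (-0.99, adjusted p = 0.019) fell, with 1.83% of all genes called. The NDRG1 call was lost without siControl replicate 1, and that of PFKFB3 without either siControl library or replicate 1 of either ZBED2 siRNA. PFKFB3 was the gene of the list called with siZBED2-1 in both lines.

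**Figure D4:**
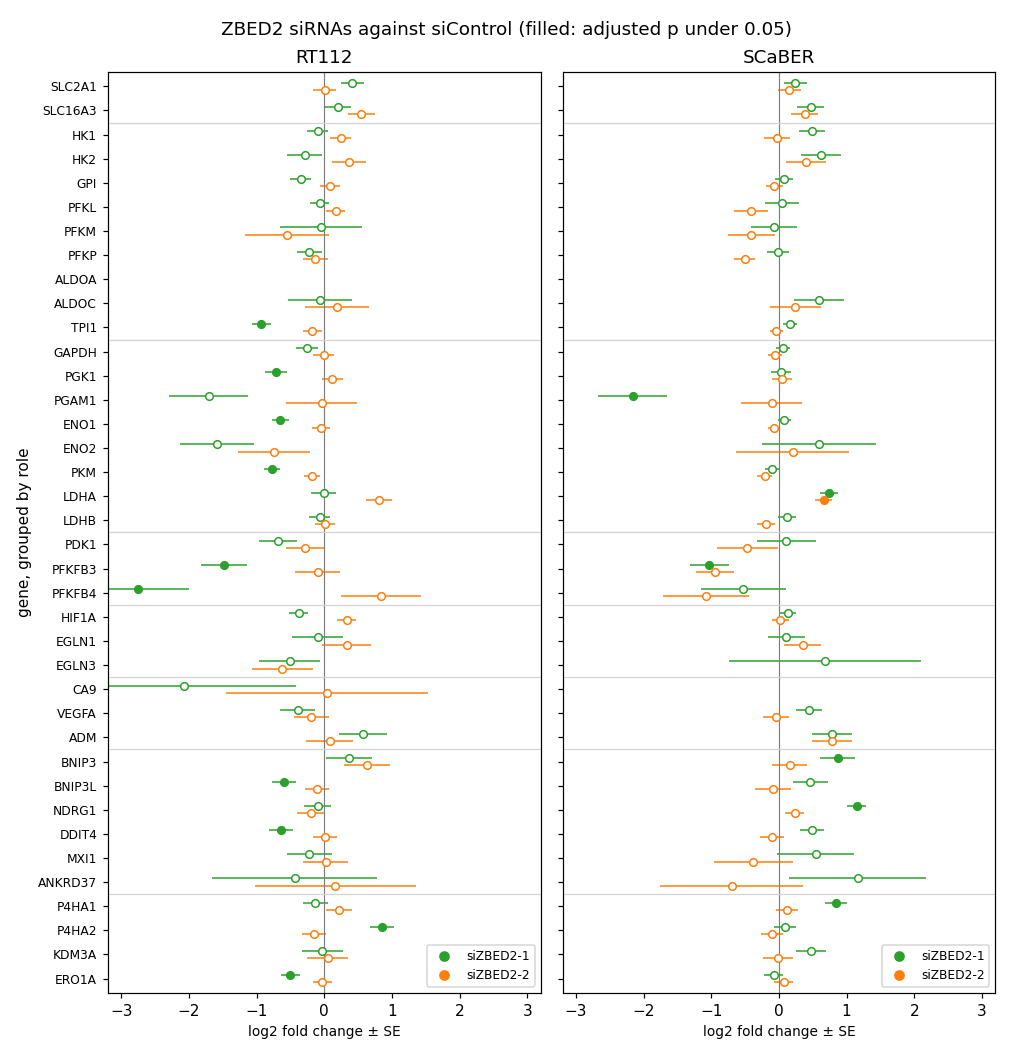
Log2 fold change ± SE of each gene with siZBED2-1 (green) and siZBED2-2 (orange) against siControl in RT112 (left) and SCaBER (right); filled points were called at an adjusted p under 0.05. In RT112 the green points of TPI1, PGK1, ENO1 and PKM are filled and left of the orange ones, and LDHA in SCaBER has both points filled; EGLN3 in SCaBER with siZBED2-2 was at 0 and is not drawn.

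Adding a ZBED2 siRNA to siFOXA1, as the mean of both siRNAs, raised 4 genes in RT112 and none fell, with 1.96% of all genes called. ZBED2 itself was not called there (log2 fold change -1.03, edgeR adjusted p = 0.573). It read 5.43 and 1.5 CPM under siFOXA1, 1.91 and 1.42 with siZBED2-1 added and 2.63 and 0.843 with siZBED2-2 added. In SCaBER ZBED2 was called lower (-1.85, adjusted p = 0.00256). Whether the changes below followed a further fall of ZBED2 was not tested. LDHA read 412, 347, 696 and 455 CPM in the double knock-downs against 234 and 165 under siFOXA1 (log2 fold change 1.23 ± 0.18, SE, adjusted p = 0.000278), and all 4 libraries lay above both. GPI read 266, 237, 310 and 248 against 164 and 124 CPM (0.88 ± 0.14, SE, adjusted p = 0.000967). DDIT4 (0.97 ± 0.17, SE, adjusted p = 0.00269) and HIF1A (0.52 ± 0.12, SE, adjusted p = 0.023) were the other two. In SCaBER 3 genes were called, with 3.84% of all genes: GPI rose from 144 and 118 to 206, 247, 230 and 206 CPM (0.76 ± 0.12, SE, adjusted p = 0.000115), LDHA from 237 and 317 to 396, 392, 365 and 450 (0.54 ± 0.11, SE, adjusted p = 0.00314), and SLC16A3 fell (-0.57, adjusted p = 0.048). With the replicate number as a block 5 were called, and of all genes 388 rose and 335 fell. Thus GPI and LDHA rose in both lines. In RT112 only LDHA stayed called without siFOXA1 replicate 2, 1 gene in place of 4, and without replicate 1 of siFOXA1 with siZBED2-2 HIF1A was lost. In SCaBER LDHA was lost without siFOXA1 replicate 1, and SLC16A3 without either siFOXA1 library, either siFOXA1 with siZBED2-2 library or replicate 2 of siFOXA1 with siZBED2-1.

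Whether a ZBED2 siRNA acted differently with and without FOXA1 siRNA was tested as an interaction. In RT112, GPI (1.01 ± 0.19, SE, adjusted p = 0.00945) and DDIT4 (1.28 ± 0.23, SE, adjusted p = 0.00593) were called, with 0.611% of all genes. With the replicate number as a block 5 genes were called, all upward, and of all genes 115 were called upward and 97 downward. In SCaBER, GPI (0.76 ± 0.17, SE, adjusted p = 0.00726) was called upward, SLC16A3 (-0.99 ± 0.24, SE, adjusted p = 0.018) and P4HA1 (-0.71, adjusted p = 0.0408) downward, with 2.29% of all genes. GPI was called in both lines, its level falling less with the FOXA1 siRNA where a ZBED2 siRNA was present. FOXA1 read 4.04 and 11.3 CPM in RT112 with siFOXA1 and siZBED2-1, and 15.6 and 9.91 with siZBED2-2. Under siFOXA1 alone it read 6.84 and 9.46, not called different (edgeR adjusted p = 0.773). In SCaBER it read 0 to 0.605 CPM in the double knock-downs against 0.816 and 1.36, also not called. The part of these levels was not tested. The siFOXA1 libraries enter this test, the double knock-down comparison and siFOXA1 against siControl, so these results are not independent. In RT112 no gene was called by edgeR without siFOXA1 replicate 2 and GPI was lost without siControl replicate 2, while 5 genes were called without siZBED2-2 replicate 1, siFOXA1 replicate 1 or replicate 2 of siFOXA1 with siZBED2-1. In SCaBER 1 gene was called without siControl replicate 2 or siFOXA1 replicate 2, GPI was lost without siFOXA1 replicate 2, SLC16A3 without siControl or siZBED2-1 replicate 2, and P4HA1 without replicate 1 of siZBED2-1 or siZBED2-2, replicate 2 of siControl, siFOXA1 or siFOXA1 with siZBED2-2, or either library of siFOXA1 with siZBED2-1.

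Under siControl, 20 of 37 genes differed between the lines, 15 lower and 5 higher in SCaBER, with 33.6% of all 14823 genes called. In transport and glycolysis 10 were lower in SCaBER. PFKL read 242 and 224 CPM in RT112 and 46.3 and 42.3 in SCaBER (log2 difference -2.41 ± 0.19, SE, adjusted p = 4.64e-12), PGK1 274 and 348 against 156 and 157 (-1.01 ± 0.15, SE, adjusted p = 2.94e-06), and HK2 41.8 and 33.4 against 14.4 and 12.8 (-1.48 ± 0.28, SE, adjusted p = 6.46e-05). SLC16A3 read 92.1 and 105 against 46.6 and 45.5 CPM (-1.11 ± 0.21, SE, adjusted p = 7.48e-05). GAPDH (-0.67), HK1 (-0.78), ENO2 (-2.62), TPI1 (-0.47), PDK1 (-1.35) and GPI (-0.37, adjusted p = 0.0457) were lower too, and PKM alone was higher (0.37, adjusted p = 0.0142). SLC2A1, LDHA, LDHB and ENO1 were not called.

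The hypoxia genes split. DDIT4 read 413 and 342 CPM in RT112 and 80.6 and 89.6 in SCaBER (-2.16 ± 0.19, SE, adjusted p = 5.49e-11), and BNIP3L 111 and 112 against 28.3 and 25.4 (-2.07 ± 0.21, SE, adjusted p = 7.32e-10). EGLN3 (-2.95), MXI1 (-1.64) and P4HA1 (-0.52) were lower in SCaBER as well. HIF1A was higher there, at 503 and 431 against 326 and 299 CPM (0.57 ± 0.12, SE, adjusted p = 0.000446), as were BNIP3 (0.88), KDM3A (0.71) and P4HA2 (0.43). DDIT4 under siFOXA1 in RT112, at 106 and 66.2 CPM, lay on either side of the SCaBER siControl libraries. The count was 13 rather than 20 without either SCaBER siControl library. Without replicate 1 GPI, ENO2, PKM, PDK1, BNIP3, P4HA2 and KDM3A were lost, and without replicate 2 HK1, GPI, EGLN3, BNIP3, MXI1, P4HA1 and KDM3A. Without RT112 siControl replicate 1 PKM, BNIP3, P4HA1, P4HA2 and KDM3A were lost, and without replicate 2 TPI1, GPI, PKM, BNIP3 and P4HA2. BNIP3 was also lost with the replicate number as a block, the GPI call under each other scaling tried, and the GPI and P4HA2 calls when any of 14 and 18 of the 24 libraries was left out.

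**Figure D5:**
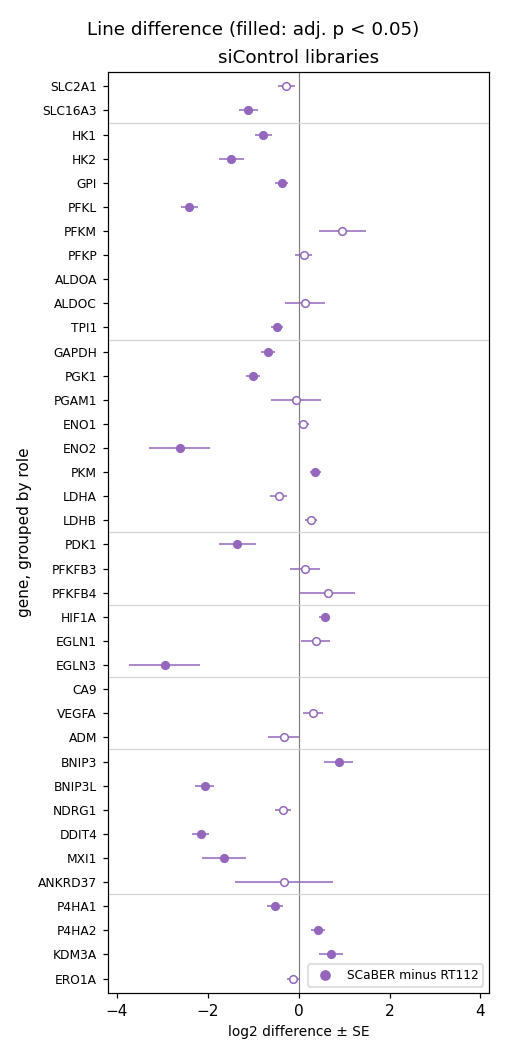
Log2 difference ± SE of each gene between the siControl libraries of SCaBER and RT112, negative where SCaBER is lower; filled points were called at an adjusted p under 0.05. PFKL, DDIT4 and BNIP3L lie near -2 and HIF1A, BNIP3 and KDM3A to the right of 0; CA9, near 0 counts in SCaBER, is off the scale and not drawn.

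Other genes of the same pathways were read with the same tests. Of 14 genes of the HIF machinery 12 were tested, and siFOXA1 called 2 in each line, where 23.3% of all genes were called in RT112 and 17.8% in SCaBER. EPAS1, which encodes HIF2A, fell in RT112 (log2 fold change -1.41 ± 0.16, SE, adjusted p = 6.08e-07) and SCaBER (-0.61, adjusted p = 0.0326), CUL2, the scaffold of the ubiquitin ligase that removes HIF, rose in RT112 (1.39, adjusted p = 0.00148), and RBX1, the RING subunit of the same ligase, rose in SCaBER (0.70, adjusted p = 0.00211). Of 30 further HIF targets, 2 rose and 5 fell of 22 tested in RT112, and 5 rose and 4 fell of 25 in SCaBER, where 11.3% and 11.9% of all RT112 genes and 8.71% and 9.12% of all SCaBER genes rose and fell. IGFBP3, which binds insulin-like growth factors, fell in both (-1.43, adjusted p = 4.99e-07, and -2.58, adjusted p = 8.02e-12). ANGPTL4, a lipoprotein lipase inhibitor, rose in SCaBER (3.17, adjusted p = 7.82e-05), and HILPDA, a lipid droplet protein, fell (-1.89, adjusted p = 9.22e-06). TFRC, the transferrin receptor, rose in RT112 (1.09, adjusted p = 0.000153).

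Of 37 other genes of carbohydrate metabolism, 2 rose and 6 fell of 23 tested in RT112 under siFOXA1, and 1 rose and 3 fell of 24 in SCaBER. Of all genes, 11.3% rose and 11.9% fell in RT112, and 8.71% rose and 9.12% fell in SCaBER. BPGM, which makes bisphosphoglycerate, rose in RT112 (1.94 ± 0.21, SE, adjusted p = 2.51e-07). TXNIP, which curbs glucose uptake, fell in RT112 (-1.20, adjusted p = 1.2e-06) and rose in SCaBER under siFOXA1 alone (0.53, adjusted p = 0.0261), while its mean over 3 backgrounds was lower in both (-1.33 and -0.41). DLAT, a subunit of pyruvate dehydrogenase, fell in RT112 (-3.37, adjusted p = 8.1e-06), and FBP1, the enzyme that reverses the phosphofructokinase step, fell in SCaBER (-4.18, adjusted p = 0.0015). PGD, of the pentose phosphate pathway, fell in SCaBER (-0.68, adjusted p = 0.00509). With siZBED2-1, TXNIP rose in both lines (0.96, adjusted p = 5.3e-05, and 1.70, adjusted p = 1.89e-08).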

How the data were processed

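RNA was extracted with a column kit and 3′ libraries were made with the Lexogen forward kit. The authors aligned reads with STAR 2.6.1a to hg38 per the labels. The deposited counts are raw counts per gene. The deposited TPM values were divided by gene length and scaled to a common library total by the authors, although 3′ tags do not grow with length, so levels were not compared between genes. Counts of genes that share a near-identical copy are uncertain.

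From the counts, edgeR 4.0.16 (R 4.3.3) fitted quasi-likelihood models by line (12 libraries, 6 groups) and jointly (24 libraries), with TMM scaling and its filter on low counts (minimum count 10, minimum total 15), leaving 13264, 13129 and 14823 genes. A gene was called at a Benjamini-Hochberg adjusted p under 0.05 over all genes tested. Alternatives were RLE scaling, library size alone, no filter, DESeq2 1.42.0 (in the joint fit on the genes that passed the filter and with a mean dispersion trend, chosen after the default trend fell back to a local regression that did not repeat exactly), limma 3.58.1 on log2(TPM + 1) of the deposited TPM, the replicate number as a block, 1 joint fit, each library left out and, added after seeing the data, mitochondrial transcripts left out. The labels name the replicate number an experiment batch, which pairs the libraries, and the main models left it out. Same-numbered libraries deviated together only weakly (mean r = 0.04 in RT112 and 0.0327 in SCaBER, 0 of 15 pairs of groups over 0.1 in each line). Replicate 1 had more genes detected than replicate 2 in every group, however. The block called more of all genes in every comparison but that of the lines under siControl. For the interaction in RT112 it called 115 upward and 97 downward, against 41 and 40 without it. Replicates correlated at 0.982 to 0.987 on log2 CPM.

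Tested on simulated data made from these libraries, the siFOXA1 comparison in RT112 recovered 55% of genes changed by 1 on the log2 scale and 87% of those changed by 2, and in SCaBER 61% and 98%. The simulation changed 100 genes of each size, all picked above a floor of counts, whereas the data called 23.3% of genes in RT112 and 17.8% in SCaBER. These recovery shares therefore do not give the power of the tests reported here. The members and the gene lists were chosen with earlier results of these data known. All 38 genes could be named. Full statistics went to at most 8 called genes per direction, comparison and line by smallest p, and from each other list at most 4 called genes were named.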

Additional observations from a re-analysis of the deposited data

Results flagged for a closer look

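The results in this section were picked out because 2 groups' effects under the same contrast differed by a test of the difference itself (edgeR, adjusted p under 0.05 over all genes). Between the lines, the log2 fold change with siFOXA1 alone was higher in SCaBER by 1.94 for DDIT4 and by 1.25 for NDRG1. As the mean over 3 backgrounds it was higher in SCaBER by 1.10 for DDIT4, 0.61 for NDRG1, 0.58 for HK1 and 1.01 for ADM. DDIT4 and NDRG1 fell further in RT112, ADM rose in SCaBER, and HK1 was called lower in RT112 and higher in SCaBER. The SCaBER call of HK1 in the mean was lost in 11 of 20 alternatives.

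Between the presence and the absence of the FOXA1 siRNA, the effect of the ZBED2 siRNAs differed in RT112 by 1.01 for GPI and 1.28 for DDIT4. In SCaBER it differed by 0.76 for GPI, -0.99 for SLC16A3 and -0.71 for P4HA1. No group held 4 or more libraries, so single libraries could not be singled out within a group.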

How the results depend on the processing

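None of the called changes of the 38 genes turned its direction under any alternative, while changes that were not called and genes outside the list were not followed. The values are numbers of the 38 genes called, and the causes of the moves were not tested. With limma on log2(TPM + 1), siZBED2-1 called 2 in RT112 and 2 in SCaBER, siZBED2-2 in SCaBER 0, the mean of both 0 in RT112 and 1 in SCaBER, siZBED2-1 against siZBED2-2 in RT112 5, the double knock-down in RT112 0, and the interaction 0 in both lines. With no filter, siZBED2-2 in RT112 called 1, the mean 4, the interaction 5 and the line difference of siFOXA1 4. DESeq2 gave 4 for the interaction in RT112. In 1 fit of all 24 libraries, siZBED2-2 called 1 in RT112 and 0 in SCaBER, siZBED2-1 in SCaBER 3 and the double knock-down in SCaBER 1.

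With the replicate number as a block, which uses the pairing, siZBED2-2 in RT112 called 1, the mean 4, the interaction 5, siZBED2-1 against siZBED2-2 in SCaBER 7, the double knock-down in SCaBER 5 and the line difference of siFOXA1 4. Over all genes the block also called more in these comparisons, as given with each of them above. Of the called changes, only BNIP3 between the lines was lost with the block.

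With each library left out in turn, the counts in RT112 ranged from 8 to 16 for siFOXA1, 14 to 19 over 3 backgrounds, 5 to 11 for siZBED2-1, 0 to 1 for siZBED2-2, 0 to 3 for their mean, 7 to 12 for siZBED2-1 against siZBED2-2, 1 to 5 for the double knock-down and 0 to 5 for the interaction. In SCaBER they ranged from 7 to 15, 11 to 15, 3 to 6, 1 to 1, 2 to 3, 1 to 5, 2 to 3 and 1 to 3 in the same order. Between the lines they ranged from 13 to 20 under siControl, 2 to 4 for siFOXA1 and 4 to 5 over 3 backgrounds.

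Of all genes called under siFOXA1 in RT112, 1499 rose and 1585 fell. Library size alone gave 1151 and 1828 with a median of -0.11 over all genes, and limma 391 and 1748 with a median of -0.26. The share of calls that rose was 38.6% and 18.3% with these, and over 3 backgrounds in RT112 37.9% and 18%. In SCaBER under siFOXA1 it was 31.2% with limma, where 1144 rose and 1197 fell otherwise, and between the lines under siControl 65.7% with limma. In SCaBER siFOXA1 called more genes lower than higher except in 1 fit of all 24 libraries (4 lower and 6 higher) and without siControl replicate 1 (5 and 5). Few counts limit CA9 and EGLN3, and why ALDOA had so few was not tested.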
